A study of Mus musculus with 4 samples.

Results

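The Nr4a, Egr and ATF immediate early genes were followed in epididymal white fat of mice given a β3-adrenergic agonist. The genes were chosen by name: the nuclear receptor genes Nr4a1, Nr4a2 and Nr4a3, the zinc finger factor genes Egr1 and Egr2, the leucine zipper factor genes Atf3 and Atf4, the immediate early response genes Ier2 and Ier3, and Myc. A gene was taken as measured when a probe set on the array carried its symbol and no other. That held for 9 of the 10 genes, by 13 probe sets, out of 8251 genes with a symbol of their own on the array. Nr4a3 had no such probe set in the table used and was not analysed here. The rule uses names and no measured value, but the names were put together with earlier results of these data known.

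Immediate early genes are transcribed within minutes of a stimulus without new protein being made first, and their messages are short-lived. In fat cells the β3-adrenergic receptor raises cyclic AMP, which frees protein kinase A to phosphorylate CREB, a factor that binds the cyclic AMP response element (CRE) in the promoters of many such genes. Nr4a, Egr and ATF genes also answer to growth factors, cytokines and cell stress in many cell types, leukocytes among them.

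Each of 4 groups of male C57 BL6 mice, 3 to 4 months old, gave 1 pool of epididymal fat RNA for 1 array. One group was the control, and the others were treated for 1 day, 3 days or 6 days with CL 316243, a selective β3-adrenergic receptor agonist, at 3 nmol/hr. The sources used here do not give the number of mice in a pool, the route of dosing or the handling of the control mice. With 1 array a group there is no replicate check, no test and no p-value, and whether groups overlap cannot be seen.

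Values are intensities brought to a common scale, and those below a floor of 174 units, the 40th percentile, were raised to it before a log2 change was taken. A gene counted as higher or lower when the change reached 2-fold. Where 1 of the values was at the floor, the fold is a lower bound, written as at least. The only error that can be estimated is the disagreement between 2 probe sets of one gene, which holds no variation between animals or pools. In log2 units it was 0.41 at day 1 (791 genes), and 0.31 for day 3 and for day 6. A change of 3 times that error is 2.37-fold, 1.92-fold and 1.91-fold. Among genes dimmer than 4 times the floor, as Nr4a1, Egr2 and Myc were, the day 1 error was 0.49 (107 genes). A change of 3 times that is 2.77-fold, more than the 2.57-fold day 1 change of Nr4a1 and the lower bound of 2.56-fold for Myc. At day 3, 3 times the error of dim genes is 2.15-fold. The fat cell markers Adipoq and Fabp4 were bright on each array, at no less than 25354 and 8618 units, although Adipoq was 2.05-fold lower at day 1 than in control.

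Promoter sequence is shown first because β3-adrenergic signals are known to act through CREB. RefSeq windows of GRCm38.p6 ran from 250 bases before to 50 bases after the start. Those of 7 of the 10 genes were used and searched on both strands. Egr1, Ier2 and Myc were not searched, so the matches given do not cover them. The array values themselves carry no coordinates. The 250 bases before the start are printed 5′ to 3′ on the gene's strand for the paralogues Nr4a1 and Nr4a2, for Atf3 and Atf4, and for Ier3, the member with the largest change. Capitals mark the CRE core TGACG or its reverse complement CGTCA. The stretches are chr15:101266596-101266845 (plus strand) for Nr4a1, chr2:57124004-57124253 (minus strand) for Nr4a2, chr1:191183334-191183583 (minus strand) for Atf3, chr15:80254934-80255183 (plus strand) for Atf4 and chr17:35821463-35821712 (plus strand) for Ier3.
Nr4a1: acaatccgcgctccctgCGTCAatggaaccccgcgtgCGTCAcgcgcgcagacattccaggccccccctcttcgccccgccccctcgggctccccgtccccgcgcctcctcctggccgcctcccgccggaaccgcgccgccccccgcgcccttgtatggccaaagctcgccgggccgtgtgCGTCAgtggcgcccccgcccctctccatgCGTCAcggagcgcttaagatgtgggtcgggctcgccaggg
Nr4a2: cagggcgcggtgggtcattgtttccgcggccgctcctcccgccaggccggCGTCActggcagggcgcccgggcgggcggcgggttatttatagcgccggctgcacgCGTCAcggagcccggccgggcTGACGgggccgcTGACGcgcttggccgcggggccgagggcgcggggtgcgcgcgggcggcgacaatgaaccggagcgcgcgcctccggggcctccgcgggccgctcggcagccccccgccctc
Atf3: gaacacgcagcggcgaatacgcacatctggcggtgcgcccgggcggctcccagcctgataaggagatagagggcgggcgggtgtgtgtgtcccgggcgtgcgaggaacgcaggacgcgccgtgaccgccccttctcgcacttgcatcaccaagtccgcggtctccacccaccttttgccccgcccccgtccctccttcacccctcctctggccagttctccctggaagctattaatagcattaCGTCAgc
Atf4: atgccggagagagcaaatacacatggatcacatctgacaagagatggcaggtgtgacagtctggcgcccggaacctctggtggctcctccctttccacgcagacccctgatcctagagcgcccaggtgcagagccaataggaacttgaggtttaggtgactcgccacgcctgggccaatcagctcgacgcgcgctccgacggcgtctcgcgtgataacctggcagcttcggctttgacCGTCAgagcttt
Ier3: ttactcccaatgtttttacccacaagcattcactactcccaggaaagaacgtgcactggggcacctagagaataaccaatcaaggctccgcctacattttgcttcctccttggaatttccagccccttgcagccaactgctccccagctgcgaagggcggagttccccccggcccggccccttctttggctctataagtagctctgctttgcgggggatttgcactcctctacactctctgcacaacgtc

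The CRE core lay 4 times in the whole window of Nr4a1, 4 times in that of Nr4a2 and 4 times in that of Nr4a3. Of all 32851 windows in the table, 20.8% held the core at least once and 0.231% held it 4 times or more. These 3 windows were rich in G and C, at 72.3%, 81.7% and 64.7%, against a median of 52.7% over all windows. Atf4 had 2 cores, 1 of them after the start and not printed, and Atf3 had 1, from base -7 to -3. Egr2 has 5 windows, some overlapping, for 5 annotated starts, and 3 of those held 2 cores each. In the Ier3 window the core was not found. The full palindrome TGACGTCA, which contains the core and is present in 1.79% of windows, was in 0 of the 7 genes, as were the AP-1 letters TGANTCA (7.81%) and the Nr4a monomer site AAAGGTCA (1.51%). The EGR letters GCGNGGGCG, found in 5.55% of windows, were in Nr4a1 and Nr4a2. A CArG box, the site of serum response factor, was in 4 of the 5 Egr2 windows and in 1.63% of all. TATAAA was in Nr4a2 (13.6% of all windows) and CACGTG in 1 Egr2 window (7.15%). A match is a description of letters and not of binding.

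**Figure D1:**
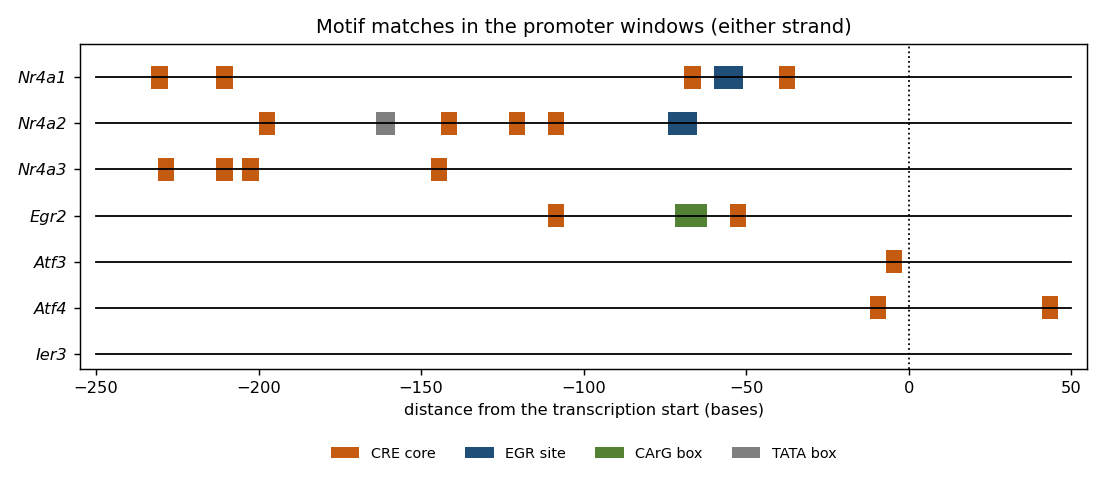
Matches to motifs in the RefSeq promoter windows of 7 genes, by distance in bases from the transcription start (dotted line); for Egr2 the third of its 5 windows is drawn. Each Nr4a window holds 4 CRE cores, all before the start, and Ier3 holds none of the motifs searched.

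At day 1, 6 of the 9 measured genes were at least 2-fold higher than control and 0 were at least 2-fold lower. Of all 8251 genes, 5.68% passed 2-fold upward and 6.34% downward on the same arrays. The 6 were Ier3, Atf3, Nr4a1, Myc, Ier2 and Egr1. The median log2 change of the 9 genes was 1.18, against 0 over all genes. At day 3, 1 gene (Atf3) was at least 2-fold higher and 0 lower, where 2.88% and 2.47% of all genes were, and the median was 0.36. At day 6, 0 were higher and 0 lower, where 1.31% and 1.24% of all genes were, and the median was -0.14. In whole tissue RNA, fewer cells of a type and less RNA per cell cannot be told apart.

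**Figure D2:**
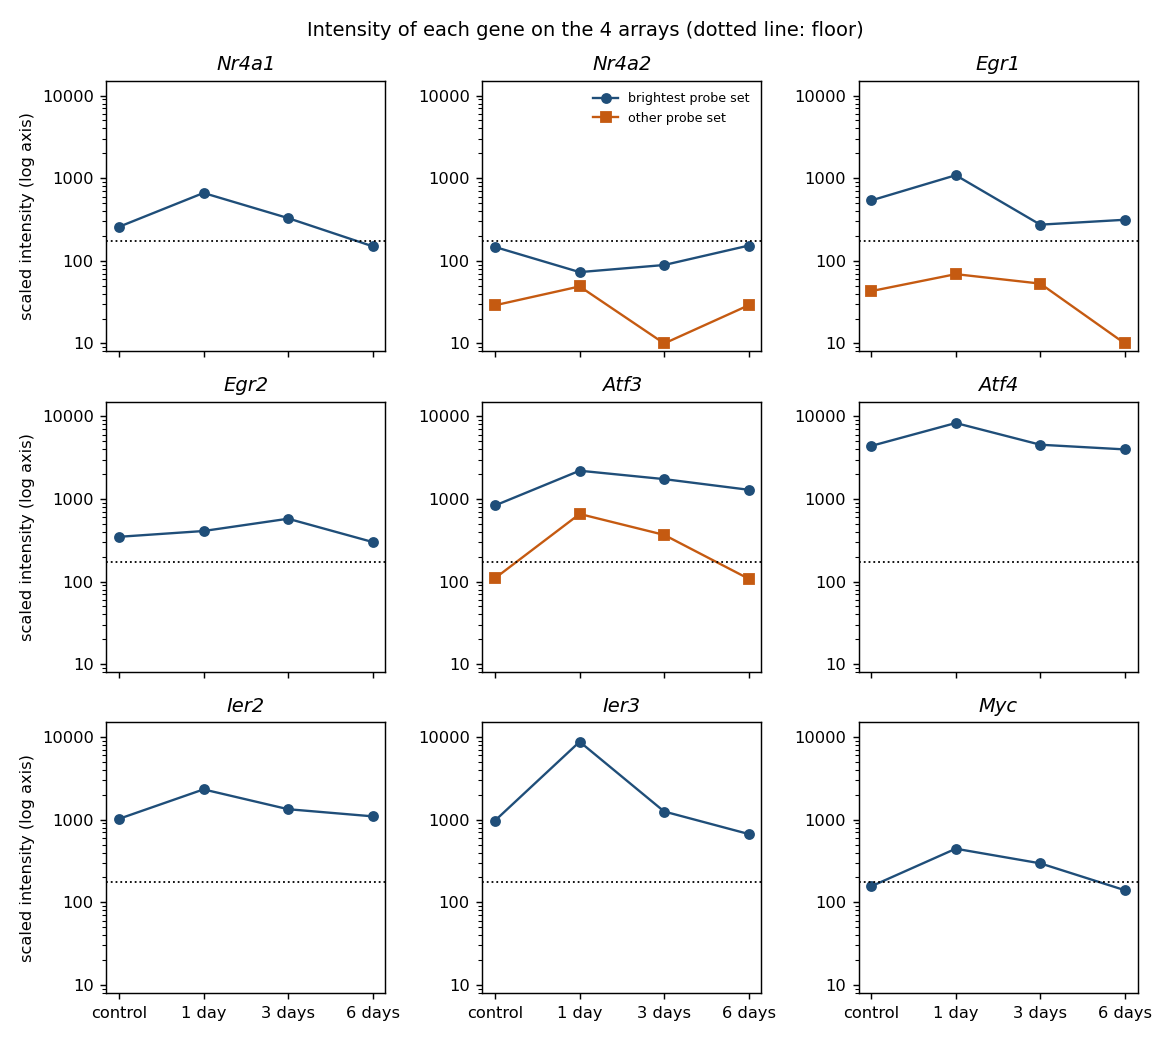
Scaled intensity (log axis) of the 9 measured genes on the control, 1 day, 3 days and 6 days arrays, 1 point per array and no replicates; squares are second probe sets, values under 10 units are drawn at 10, and the third Atf3 probe set, below 0 on each array, is not drawn. Ier3 goes from 976 units to 8770 at day 1 and back to 1255 at day 3, while Nr4a2 stays under the dotted floor throughout.

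Among the nuclear receptors, Nr4a1 encodes Nur77, an orphan receptor that binds DNA without a known hormone. Its intensity was 258 in control, 663 at day 1, 329 at day 3 and 150 at day 6. The day 1 array was the highest and the day 6 array lay below the floor. The day 1 value was 2.57-fold above control, a log2 change of 1.36 that 3.55% of all genes exceeded. With a 60th-percentile floor that change was 0.30, since the control value then lay at the floor. At day 3 the log2 change was 0.35, and at day 6 the value was at least 1.49-fold below control. Nr4a2, which encodes the paralogue Nurr1, gave 147, 73, 89 and 153 units on the control, day 1, day 3 and day 6 arrays by its brighter probe set. The other probe set gave 29, 49, 8 and 29. All 8 values were below the floor, so no fold is given. The Nr4a1 and Nr4a2 promoters hold the same number of CRE cores, and of the pair only Nr4a1 was above the floor on any array. Whether the cores bear on the level of either gene was not tested, and Nr4a2 gave no measured change.

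Of the EGR genes, Egr1 encodes a zinc finger factor that growth factors induce through serum response factor. It stood at 538 units in control, 1087 at day 1, 274 at day 3 and 314 at day 6. The day 1 array was the highest, and days 3 and 6 were both below control. The day 1 value was 2.02-fold above control, which is less than 3 errors. The day 3 value was 1.96-fold below control, a log2 change of -0.97, and 2.64% of all genes had a larger fall. At day 6 it was 1.71-fold below control. With a 60th-percentile floor both of these log2 changes were 0.00, and with the mean of its probe sets they were -0.49 and -0.39. From day 1 to day 3 Egr1 fell 3.97-fold. Its second probe set, of a kind built on fewer probe pairs, read 43, 69, 53 and -8 units, below the floor throughout, and with that mean the day 1 log2 change was 0.51. Egr2, which shares the DNA-binding fingers of Egr1, read 348, 409, 576 and 301 units, with its highest value at day 3, where Egr1 had its lowest. With 1 array a group, a difference between the 2 genes was not tested. Its log2 changes were 0.23, 0.73 and -0.21 for days 1, 3 and 6, each under 2-fold, and with a 60th-percentile floor the day 3 change was 0.10.

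Atf3 encodes a stress-induced leucine zipper repressor. Its brightest probe set, of a type that Affymetrix marks as shared within a sequence family, read 834 units in control, 2196 at day 1, 1737 at day 3 and 1290 at day 6. All treated arrays were above control, in falling order with time. Day 1 was 2.63-fold, day 3 2.08-fold and day 6 1.55-fold above control. The second Atf3 probe set read 110, 658, 367 and 108 units. It was thus higher by at least 3.79-fold at day 1 and by at least 2.11-fold at day 3, and at day 6 it was again below the floor, as in control. The third read -352, -638, -340 and -394 units and gave no measurement. With all 3 averaged the day 3 log2 change was 0.71, and with a pseudocount of 100 in place of the floor it was 0.98, both short of 2-fold. Atf4, which drives amino acid synthesis and transport genes when translation is restrained, was well above the floor on every array. It read 4381 units in control, 8299 at day 1, 4530 at day 3 and 3975 at day 6. Only the day 1 array stood apart from the others. Its day 1 change of 1.89-fold did not reach the 2-fold call, and at day 3 it was within 1.03-fold of control. Atf4 protein is known to be set mostly by translation, which the array does not measure.

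Ier3 encodes a short-lived protein that cytokines and growth factors induce and that alters cell survival. It read 976 units in control, 8770 at day 1, 1255 at day 3 and 670 at day 6. The day 1 array was far above the other arrays, and day 6 was below control. The day 1 change was 8.99-fold, and 42 of 8251 genes had a larger one. From day 1 to day 3 it fell 6.99-fold, and at day 6 it stood 13.1-fold below day 1 and 1.46-fold below control. Ier2, which encodes a nuclear protein also named for its early response, had a smaller change. It read 1023, 2325, 1338 and 1097 units on the control, day 1, day 3 and day 6 arrays. The day 1 value was 2.27-fold above control, which is less than 3 errors, and the later arrays were within 1.31-fold of control.

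Myc, the growth-promoting transcription factor, was below the floor in control, at 156 units, and reached 445 at day 1 and 296 at day 3 before it read 140 at day 6. Days 1 and 3 were the only arrays above the floor. The day 1 value was at least 2.56-fold and the day 3 value at least 1.71-fold above control. A 60th-percentile floor took in all 4 values. 

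**Figure D3:**
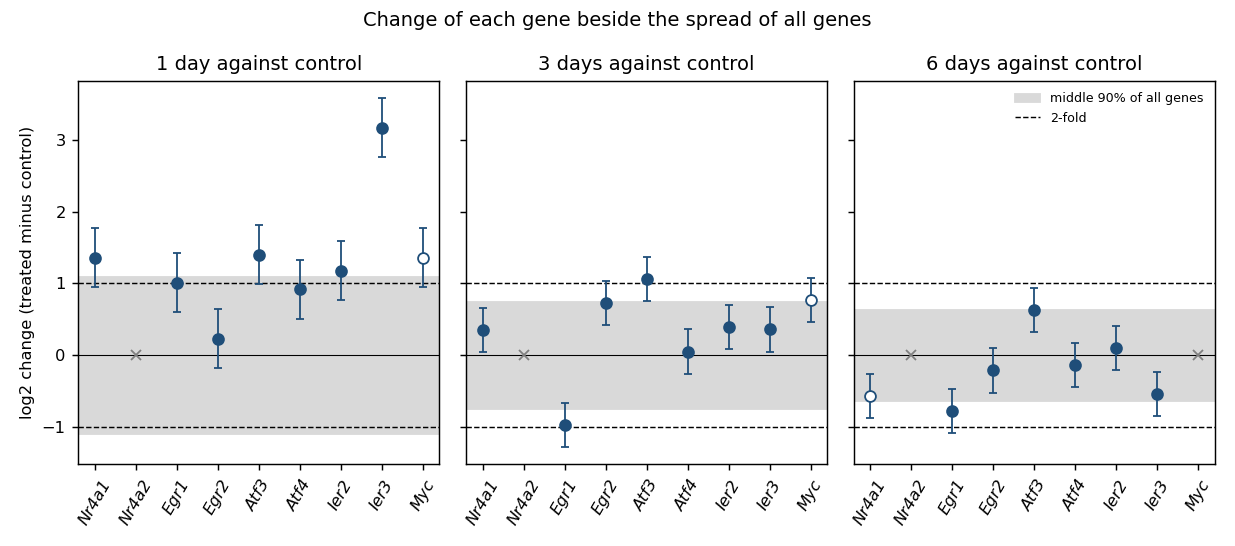
Log2 change (treated minus control) of the 9 genes at 1 day, 3 days and 6 days; error bars are 1 error between probe sets of one gene, open circles are bounds against a value at the floor, and crosses are genes at the floor on both arrays. The grey band holds the middle 90% of 8251 genes, the dashed lines mark 2-fold, and Ier3 at day 1 (3.17) lies farthest outside.

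Between treated days, 3 of the 9 genes (Ier3, Egr1 and Nr4a1) were at least 2-fold lower at day 3 than at day 1 and 0 were higher. Of all genes, 4.76% were lower and 4.42% higher. The fall of Nr4a1, a dim gene, was 2.01-fold and only just reached the call. From day 3 to day 6, 0 were at least 2-fold lower and 0 higher, against 2.01% and 1.14% of all genes. Between day 1 and day 6, 6 were at least 2-fold lower: Ier3, Nr4a1, Egr1, Myc, Ier2 and Atf4. Ier2 and Atf4 were just past the call, at 2.12-fold and 2.09-fold. None of the 9 was at least 2-fold higher. In that comparison 6.77% of all genes were lower and 6.81% higher. Atf3 was lower by 1.70-fold. These comparisons share the day 1 array with the comparison of day 1 with control, or a later array with those of days 3 and 6. No error was estimated for changes between treated days, and their counts were not recomputed with other settings.

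The profile over the 4 arrays was set beside that of 5296 other genes whose brightest array reached at least 2 times the floor, by the distance between log2 values centred on each gene's mean. Profiles were not scaled for the size of the change, so a gene with a larger change tends to have fewer genes near it. Of the 6 genes with a 2-fold change against control, Ier3 had the largest change and the fewest genes within a distance of 0.5. These 3 were the cytokine feedback inhibitor Socs3 at 0.32, the interleukin 4 receptor gene Il4ra at 0.41 and Retreg1 at 0.48. Socs3 read 285, 2917, 388 and 263 units on the control, day 1, day 3 and day 6 arrays. The nearest to Egr1, which had 30 genes within 0.5, were the connective tissue growth factor gene Ccn2 at 0.23, Angpt2 at 0.24 and Dnajc3 at 0.27. Ccn2 read 956, 1837, 566 and 535 units, so that it too was below control on the later days. The nearest to Atf3 was Sat1, the polyamine acetyltransferase, at 0.09, followed by Ppan and Tmem37. For Nr4a1 they were the monoamine oxidase gene Maoa (0.17), Ifngr2 and Card19. Ier2 had 375 genes within 0.5, with Trpv2 (0.05), Gcnt1 and C1qtnf1 nearest. Myc had 171, with the actin-binding profilin gene Pfn1 (0.07), Rab8b and Gm7775 nearest. For Maoa, Tmem37, C1qtnf1 and Il4ra another probe set was below the floor on the arrays where the brightest one passed 2-fold. Dnajc3 had a probe set that went from 1258 to 2143 units at day 1 and another that went from 1372 to 1234.

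Other genes of these pathways were counted from whole lists. Over all 8251 genes, the shares at least 2-fold higher and lower were 5.68% and 6.34% at day 1. They were 2.88% and 2.47% at day 3, and 1.31% and 1.24% at day 6. Of 46 other immediate early genes, 13 were at least 2-fold higher at day 1 and 0 lower, and the median log2 change was 0.64. The AP-1 gene Junb went from 302 to 4450 units, which is 14.7-fold, and its second probe set from 362 to 2398. The growth arrest gene Gadd45b was at least 12.3-fold and Socs3 10.2-fold higher at day 1, and the second probe sets of both went the same way. The AP-1 gene Fosl1 was below the floor on each array except day 1, where it read 1537 and was at least 8.85-fold higher. At day 3 the same list had 4 genes higher and 4 lower (median -0.03), and at day 6 it had 1 higher and 2 lower.

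The list of the CREB family, coactivators and cAMP-induced genes mixes regulators with genes that they induce, and it showed no common direction. Of 13 measured, 2 (15.4%) were at least 2-fold higher and 2 (15.4%) lower at day 1, against 5.68% and 6.34% of all genes. The counts were 0 and 2 at day 3, and 1 and 0 at day 6. The clock gene Per1, which CREB induces, read 315, 1088, 549 and 835 units on the control, day 1, day 3 and day 6 arrays. It was 3.45-fold higher at day 1 and 2.65-fold higher at day 6. The phosphatase gene Dusp1, which switches off MAP kinases, was 2.33-fold higher at day 1, at 11748 units. Dusp1 is also among the 46 early genes. Both higher genes, Per1 and Dusp1, were listed as cAMP-induced genes and not as regulators. The CREB-binding coactivator gene Crebbp and the kinase A anchor gene Akap12 were 2.23-fold and 2.28-fold lower at day 1. Creb1 itself was below the floor on all 4 arrays.

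Downstream, of 29 ATF4 target genes of the integrated stress response, 4 (13.8%) were higher and 2 (6.9%) lower at day 1. Of all genes, 5.68% and 6.34% were. The median log2 change of the list at day 1 was 0.31, and at day 3, 0 of 29 passed 2-fold in either direction. With a 60th-percentile floor the day 1 count of higher genes was 2. The leucine zipper gene Cebpb, which is also among the 46 early genes, went from 3551 to 15203 units, or 4.28-fold. Ppp1r15a, a phosphatase subunit that restores translation after stress, was 3.25-fold and Ddit4, an inhibitor of mTOR, 2.66-fold higher. Pck2, a mitochondrial enzyme of gluconeogenesis, was at least 2.71-fold lower by its brighter probe set, with the other below the floor. Asparagine synthetase (Asns), a target named for its textbook role after its values were seen, read 7720, 6129, 11792 and 11480 units on the control, day 1, day 3 and day 6 arrays. Its day 1 value was the lowest, but was 1.26-fold below control, a log2 change of -0.33 that is less than 1 error. Of the 29 targets, 17 had a log2 change above 0 at day 1.

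Of 33 MYC target genes of growth and ribosome making, 8 (24.2%) were higher and 0 lower at day 1, against 5.68% and 6.34% of all genes. The median log2 change of the list was 0.51. A 60th-percentile floor left a count of 4 and the pseudocount a count of 5. Odc1, the first enzyme of polyamine synthesis, went from 624 to 3763 units and was 6.03-fold higher, and the spermidine synthase gene Srm was 2.59-fold higher. Nop58, of small nucleolar RNA particles, was 2.47-fold and Ppan, of ribosome assembly, at least 2.43-fold higher. At day 3 and at day 6, 0 of the 33 were at least 2-fold higher and 1 was lower. Among 10 MYC network partners, Mxd1, which competes with MYC for its partner MAX, read -118, 1296, -5 and -26 units on the control, day 1, day 3 and day 6 arrays and was at least 7.46-fold higher at day 1. Mycl, a MYC paralogue, was 2.89-fold lower at day 1.

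Of 14 EGR corepressors and target genes, 2 (14.3%) were higher and 1 (7.14%) lower at day 1, against 5.68% and 6.34% of all genes. The adhesion receptor gene Cd44 went from 59 to 1632 units, at least 9.40-fold, and the adhesion molecule gene Icam1 was 2.79-fold higher. For Cd44 the other 2 probe sets were below the floor on all arrays. Tissue factor (F3), which starts coagulation, was 3.46-fold lower. At day 3, Cd44 and the growth factor gene Tgfb1 (2.69-fold) were the 2 higher genes. Of 15 NR4A partners and target genes, 1 (6.67%) was higher and 2 (13.3%) lower at day 1, against the same shares of all genes. The higher one was Ucp1, which lets brown fat mitochondria make heat, at least 17.6-fold, and its second probe set went from 41 to 552 units. The glucose transporter gene Slc2a4 was 6.26-fold and the muscle-type phosphofructokinase gene Pfkm 2.94-fold lower at day 1; the second Slc2a4 probe set was below the floor on each array. Ucp3, of the same carrier family as Ucp1, was 2.30-fold higher at day 6.

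**Figure D4:**
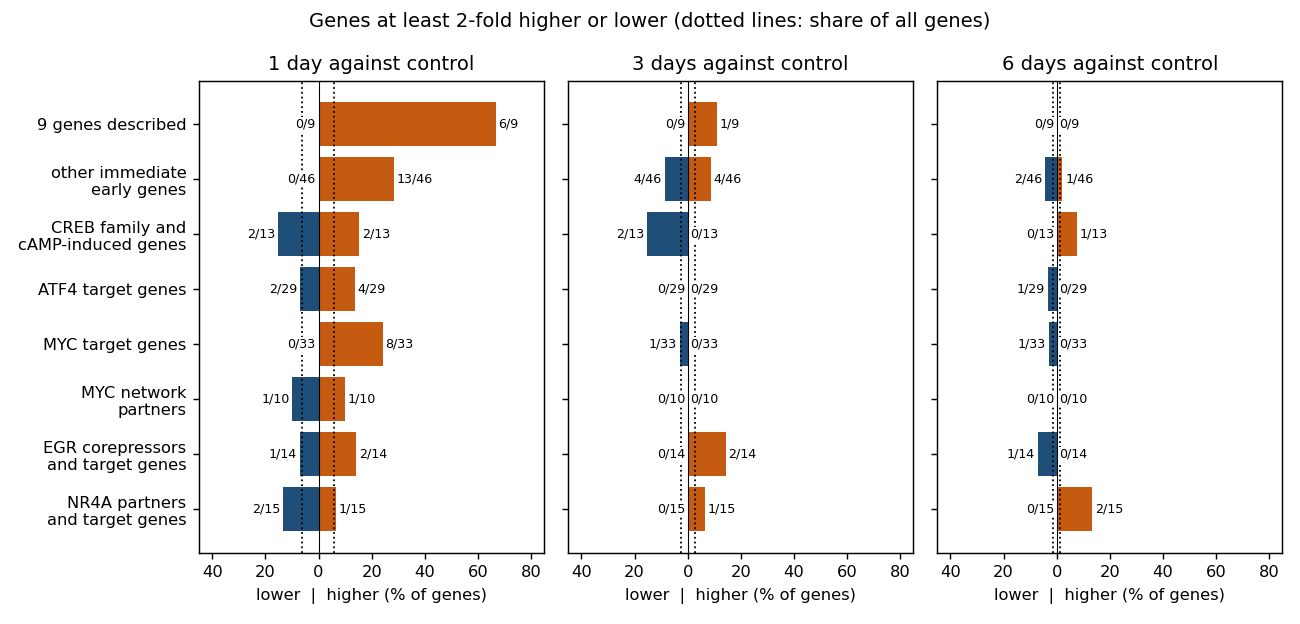
Share of genes at least 2-fold higher (right) or lower (left) than control at 1 day, 3 days and 6 days, for the 9 genes and 7 lists, with counts; dotted lines give the share of all 8251 genes. The bars of the 9 genes (6 of 9), the other immediate early genes (13 of 46) and the MYC target genes (8 of 33) reach farthest to the right at day 1.

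Markers of leukocytes moved on the same arrays. Of all genes, 5.68% were at least 2-fold higher and 6.34% lower at day 1, and 2.88% and 1.31% were higher at days 3 and 6. Of 13 macrophage and monocyte markers, 9 were at least 2-fold higher at day 1, 7 at day 3 and 1 at day 6. Their summed level was 36490 units in control and 103165, 93322 and 44057 at days 1, 3 and 6. Of 10 neutrophil markers, 4 were higher and 1 lower at day 1, and the summed level went from 7199 to 82368, 9120 and 4662 units. S100a8 and S100a9 made up most of the day 1 sum, at 40273 and 26706 units, while the neutrophil granule genes Mpo and Ngp were below the floor on each array. Of 12 fat cell markers, 4 were lower and 0 higher at day 1. The 4 were Lep (11.5-fold), Pparg (3.75-fold), Adipoq (2.05-fold) and Cebpa (2.02-fold). The summed levels of the 12 were 311539, 203446, 291186 and 332867 units on the control, day 1, day 3 and day 6 arrays. Of 12 T, NK and B cell markers, 1 was higher (Cd79a) and 1 lower (Ighm) at day 1. The other markers included 7 that were below the floor on each array, Cd3e, Cd3d and Cd3g among them. The summed level was 20297 units in control and 7750, 10348 and 15606 at days 1, 3 and 6. Ighm made up most of it, at 18372, 5987, 8792 and 13670 units on the control, day 1, day 3 and day 6 arrays. Of 9 endothelial markers, 3 were lower at day 1, and of 7 mesothelial and epithelial markers 2 were. The part of any of these cells in the changes of Ier3, Atf3, Nr4a1, Egr1, Ier2 and Myc was not tested. Of 8 testis and epididymis markers, the epididymal lipocalin gene Lcn5 read 3322, 63, 7 and 8031 units on the control, day 1, day 3 and day 6 arrays, so the pools also differed in this marker.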

How the data were processed

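The authors deposited linear probe set intensities, whole numbers with 12.1% to 12.4% per array at or below 0, as after a background or mismatch subtraction. The 4 columns had almost the same distribution (medians 315 to 316 over transcripts). The sources used here do not name the software or normalization. Of 12488 probe sets, 66 controls were left out; of the other 12422, the array's annotation gave 1 symbol to 10833, several to 396 and none listed here to 1193. Arrays were multiplied by a factor that made the mean of values between the 2nd and 98th percentiles equal (factors 0.998 to 1.001), values were raised to a floor of 174 (40th percentile) and log2 was taken, in Python 3.11.15 with pandas 2.3.3 and numpy 2.4.6. The brightest probe set by its mean stood for a gene. Intensities are printed before the floor; a change past 2-fold is a count, not a test. The precision is limited by the number of arrays.

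The members and the gene, marker and motif lists (7 gene lists and 7 marker lists) were chosen with earlier results of these data known. Named genes were all members, from each gene list up to 4 genes past 2-fold, those with the largest changes, and the 3 nearest profiles of each member past 2-fold; exceptions are stated. Genes on 2 lists count in both. Alternatives were no scaling, quantile normalization, floors at the 25th and 60th percentiles, a pseudocount of 100, the mean of all probe sets, and a call at 3 errors. The steps were tested on simulated data with known changes put into bright probe sets only, so calls of dim genes were not tested.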

Additional observations from a re-analysis of the deposited data

How the results depend on the processing

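The day 1 count of 6 higher genes was 6 without scaling, with quantile normalization and with a 25th-percentile floor, 5 with a pseudocount of 100 or the mean of all probe sets, and 4 with a 60th-percentile floor or a call at 3 errors. That error is the one over all genes. For dim genes 3 times the day 1 error is 2.77-fold, above the 2.57-fold of Nr4a1 and the lower bound of 2.56-fold for Myc. The 0 lower genes of day 1 became 1 with a 25th-percentile floor, where Nr4a2 values that had been level at the floor differ (log2 change -1.01). The 1 higher gene of day 3 became 0 with the pseudocount (log2 change of Atf3 0.98) and 0 with the mean of all probe sets (0.71), which brings in the dimmer Atf3 probe sets. The 0 lower genes of day 3 became 1 with a call at 3 errors, which is under 2-fold there, and the gene was Egr1. Egr1 was under 4 times the floor on the control and day 3 arrays. For dim genes 3 times the day 3 error is 2.15-fold, above the 1.96-fold fall of Egr1. The counts of 0 at day 6 stayed at 0 under all 7 alternatives. Of 162 member changes recomputed, 17 moved by more than 1 error and 0 of those past 2-fold changed sign. Of 252 list counts, 39 moved by over 1.5 times or went to or from 0. Over all genes, a 60th-percentile floor left 299 higher and 319 lower at day 1 (469 and 523 otherwise), 135 and 108 at day 3 (238 and 204) and 60 and 53 at day 6 (108 and 102). A 25th-percentile floor gave 394 and 386 at day 3 and 266 and 280 at day 6. No paired analysis was possible because each group has 1 array, and no array could be left out for the same reason.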

Other observations

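Some early genes outside the naming rule, chosen after their values were seen, differed from control later than day 1. Rgs2, a cyclic AMP-induced brake on G protein signalling, read 493 units in control, 631 at day 1, 1319 at day 3 and 1616 at day 6, with a log2 change of 1.71 at day 6. It was the 1 gene of 46 other immediate early genes that was at least 2-fold higher at day 6. The 2 lower genes at day 6 were the growth arrest genes Gadd45a and Gadd45g, with log2 changes of -1.86 and -1.13. Gadd45g read 1915, 2133, 737 and 873 units on the control, day 1, day 3 and day 6 arrays, and Gadd45a 879, 1309, 487 and 242. Their relative Gadd45b read 127, 2132, 356 and 334 by its brighter probe set, which is of the shared family type. Its other probe set read 105, 959, 259 and 134. By both, the day 1 rise was larger than those of Gadd45a and Gadd45g. Both control values of Gadd45b were below the floor, so a later fall below control could not be seen. Jun, the AP-1 partner of Fos, read 466, 1139, 215 and 360 units, and Klf2 read 516, 429, -168 and 314. At day 3 the 4 lower early genes were Jun, Klf2, Gadd45g and Nfil3.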
